A study of Mus musculus with 49 samples.

Results

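The 5 dopamine receptor genes of the mouse, Drd1 to Drd5, were followed through every library of a study of the nucleus accumbens (NAc) and its medium spiny neurons (MSNs). They were chosen by name, symbols were matched to the Ensembl identifiers of the count table, and 5 of the 52636 genes in that table were thus described. RNA of D1- and D2-MSNs had been taken by 3 methods: nuclear-FACS (fluorescence-activated sorting of nuclei), whole cell-FACS and RiboTag affinity purification. All mice were on a C57BL/6J background, each sample came from a different mouse, and ages are not given in the sources used here. The nuclear libraries (6 D1 and 5 D2) came from Drd1-cre or Drd2-cre mice crossed with Thy1-loxPSTOPloxP-EGFP-F, whose nuclei carried GFP once Cre had removed the stop. The whole cell libraries (8 D1 and 6 D2) came from mice with a cytoplasmic fluorophore under the Drd1 or the Drd2 promoter. The RiboTag libraries came from Drd1-cre or Drd2-cre mice crossed with Rpl22-loxPexon4loxP-exon4-HA, in which ribosomes of Cre-expressing cells carry an HA tag, and they fall into sets labelled M (6 D1 and 6 D2) and F (5 D1 and 5 D2). Nuclear and whole cell libraries were all male. The labels thus mark cells by activity of the Drd1 or Drd2 gene at any time for Cre and at collection for the fluorophore, and other cells with these promoters, such as interneurons, carry the label too.

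Dopamine receptors are G protein-coupled receptors of 2 classes. The D1-like receptors, encoded by Drd1 and Drd5, couple to stimulatory G proteins and raise cyclic AMP, whereas the D2-like receptors, encoded by Drd2, Drd3 and Drd4, couple to inhibitory G proteins and lower it. In the striatum Drd1 marks the MSNs of the direct pathway and Drd2 those of the indirect pathway, Drd2 is also made by cholinergic interneurons, and Drd3 is known for its expression in the ventral striatum and the islands of Calleja. Drd4 and Drd5 are known mainly from cortex and hippocampus.

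The genes differ in structure, which matters because fragments were counted over whole gene bodies. On GRCm38, Drd1 (ENSMUSG00000021478) lies on chromosome 13 at 54051183-54055705 on the minus strand and Drd5 (ENSMUSG00000039358) on chromosome 5 at 38319367-38322518 on the plus strand. Drd2 (ENSMUSG00000032259) lies on chromosome 9 at 49340627-49408177, Drd3 (ENSMUSG00000022705) on chromosome 16 at 43754026-43822932 and Drd4 (ENSMUSG00000025496) on chromosome 7 at 141292006-141296464, all on the plus strand. Exons made up 80.2% of the span of Drd1, 75.8% of Drd4 and 100% of Drd5, but 3.77% of the 67551 bases of Drd2 and 2.48% of the 68907 bases of Drd3. Intronic fragments could therefore enter mainly the counts of Drd2 and Drd3. Drd5 shares 1531 bases with the antisense gene Gm26560, and since strand was ignored in counting its value is uncertain: over the nuclear libraries 210 fragments were counted for Drd5 and 404 for Gm26560.

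RefSeq promoter windows on GRCm38.p6 were matched for 5 of 5 genes, and those of Drd1 and Drd2, which drive the labels, and of Drd3, which does not, are shown from 250 bases before the start up to the start or the first annotated exon, 5′ to 3′ on the strand of the gene. Capitals mark the GC box, GGGCGG on either strand.
Drd1: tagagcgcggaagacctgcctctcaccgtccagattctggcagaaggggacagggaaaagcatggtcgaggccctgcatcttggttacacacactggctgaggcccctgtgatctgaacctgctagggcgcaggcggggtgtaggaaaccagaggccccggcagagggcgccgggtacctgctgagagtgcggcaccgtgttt
Drd2: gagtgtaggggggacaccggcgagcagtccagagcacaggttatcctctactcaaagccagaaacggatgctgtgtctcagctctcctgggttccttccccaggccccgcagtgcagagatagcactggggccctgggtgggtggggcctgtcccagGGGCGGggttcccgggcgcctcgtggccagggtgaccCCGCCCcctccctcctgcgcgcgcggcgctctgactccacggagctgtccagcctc
Drd3: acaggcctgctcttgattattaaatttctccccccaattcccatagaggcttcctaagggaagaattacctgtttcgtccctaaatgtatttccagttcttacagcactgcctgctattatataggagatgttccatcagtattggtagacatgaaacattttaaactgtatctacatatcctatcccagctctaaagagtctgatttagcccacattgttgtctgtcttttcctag
The Drd1 run is the minus strand of chr13:54055706-54055908, the Drd2 run the plus strand of chr9:49340153-49340402 and the Drd3 run the plus strand of chr16:43761971-43762207. The Drd2 window held 2 GC boxes, that of Drd3 none and this window of Drd1 none, while a second Drd1 window at 54054781-54055030 held 1. For comparison, 32.7% of 32851 windows of the same length held the motif. The base composition set Drd3 apart, with 39.2% G and C in its 250 bases against 64% for Drd1 and 68.8% for Drd2. Of all windows, 10.3% had a lower share than Drd3. The Drd3 start lies inside the annotated span, so the run printed is intron of its longer transcripts. The windows of Drd4 and Drd5 (56.8% and 71.2% G and C) held 3 GC boxes, 2 of them overlapping, and 2 GC boxes. None of the member windows held TATAAA or TGACGTCA.

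Total counts ranged from 3701255 to 68777008 per library over the 47 libraries. Some libraries stood apart. The 10 genes with the most counts took 32.5% to 66.9% of the counts of nuclear D1 replicates 1, 2, 5 and 6, 54.5% and 38.3% of whole cell D2 replicates 2 and 6, and 84.9% to 88.3% in RiboTag libraries. Fragments over genes that neurons of the NAc should not transcribe (1420 autosomal olfactory and vomeronasal receptor genes, here the silent-gene rate) came to 0.254-0.410 per kilobase (kb) of gene and 1e6 counts in nuclear D2 libraries, 0.00454-0.174 in nuclear D1, 0.0655-0.412 in either whole cell group and 0.000202-0.000496 in those of RiboTag. The silent-gene rate thus did not overlap between nuclear D1 and D2 libraries. In 5 of the 12 RiboTag libraries labelled M (D1 replicates 1 to 4 and D2 replicate 2), 4 Y-linked genes summed to 0.0348-0.743 counts per 1e6 (CPM), against 1.78-10.7 in the other 7 and at most 0.246 in those labelled F, so these 5 go against their label. The comparisons of D1 with D2, of methods and of F with M were also run without them, and values are given where a call changed. Among the other 7, D2 replicate 6 had the lowest Y-linked value (1.78), and its X-linked gene Xist was at 2.56 per 1e6 counts. The rest of the 7 had Xist at no more than 0.448, and F libraries at 2.57-10.8. The label of D2 replicate 6 is thus uncertain too, and it stayed in the comparisons without the 5. Throughout, CPM are counts per 1e6 of the normalized (TMM) library size, differences are D2 minus D1 on a log2 scale, and CPM are not set against each other across methods.

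Drd1, the main D1-like receptor of the striatum, was higher in D1 libraries of every set, without overlap between D1 and D2 in any of them. In nuclear D1 libraries the lowest, median and highest Drd1 levels were 22.4, 55.4 and 74.1 CPM, and in the 5 nuclear D2 libraries the levels were 17.1, 14.4, 18.5, 8.79 and 15.9 CPM. In whole cell libraries they were 155, 433 and 607 CPM in D1 and 0.812, 12.9 and 24.5 CPM in D2. The whole cell sort gave the widest gap. In RiboTag M libraries Drd1 ranged from 22.2 through a median of 25.6 to 33.2 CPM in D1 and from 4.26 through 7.29 to 8.20 CPM in D2. In RiboTag F it stood at 26.5, 30.9, 29.4, 33.0 and 33.4 CPM in D1 against 4.84, 10.9, 9.25, 4.99 and 11.0 CPM in D2. These gaps were larger than the spread between replicates in each set (edgeR quasi-likelihood test, Benjamini-Hochberg adjusted over all genes tested): -1.75 ± 0.30 (SE) in nuclear (adjusted p = 0.00919), -5.05 ± 0.56 in whole cell (2.8e-05), -1.94 ± 0.11 in RiboTag M (3.44e-12) and -1.91 ± 0.16 in RiboTag F (7.71e-08). Since activity of the Drd1 and Drd2 genes defined the labels, these differences check the labels. All D1 libraries came from Drd1 driver mice and all D2 libraries from Drd2 driver mice, so cell type and mouse line cannot be told apart. Against the silent-gene rate per kb, Drd1 stood at 18.5 to 784 times in nuclear D1 and 1.80 to 6.58 times in nuclear D2 libraries, again without overlap. Without the 4 nuclear D1 libraries of high top-10 share, Drd1 was at -1.07 with adjusted p = 0.0805, where 2 D1 libraries remained.

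Drd5, the other D1-like receptor, was near the limit of counting. It was counted in 41 of 47 libraries, with 0 to 3 counts in any RiboTag library and 0 to 47 elsewhere. A count of 0 allows up to 3 counts, which was 0.0657-0.125 per 1e6 of total in RiboTag libraries. In whole cell libraries Drd5 spanned 0.211-2.97 CPM in D1 and 0-2.60 CPM in D2, so the groups overlapped. In nuclear libraries it spanned 0-1.74 CPM in D1, and the D2 libraries had 2.18, 1.82, 1.63, 3.23 and 5.73 CPM. Nuclear D2 exceeded D1 by 1.38 in mean log2 CPM (exact permutation test, two-sided, unadjusted p = 0.00649). Per kb, however, Drd5 in nuclear D2 stood at 0.738 to 2.92 times the silent-gene rate of the same library and was above that rate in 1 of 5. With that rate subtracted, 4 of the 5 D2 libraries fell below 0 counts, so that a difference then depends on the 0.5 counts added and on library size and is not read. Counting thus did not settle a Drd5 difference.

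Drd2, the main D2-like receptor, was the mirror image of Drd1, being higher in D2 libraries of every set with no overlap. Nuclear D1 libraries ranged from 215 through a median of 239 to 419.6 CPM, the last in replicate 2, and nuclear D2 libraries had 1046, 962, 1145, 694 and 614 CPM. Whole cell libraries ranged from 19.0 through 53.3 to 122 CPM in D1 and from 936 through 2091 to 4018 CPM in D2. The lowest whole cell D2 library was thus well above the highest D1 library. RiboTag M libraries ranged from 4.32 through 7.19 to 9.35 CPM in D1 and from 40.3 through 47.0 to 53.5 CPM in D2. RiboTag F libraries had 8.36, 8.34, 7.13, 5.67 and 7.51 CPM in D1 and 50.1, 45.4, 53.7, 47.2 and 48.7 CPM in D2, close to those of the M set. In the same edgeR tests Drd2 differed by 1.74 ± 0.21 in nuclear (adjusted p = 0.00218), 5.23 ± 0.42 in whole cell (3.64e-07), 2.71 ± 0.10 in RiboTag M (2.53e-15) and 2.73 ± 0.08 in RiboTag F (3.39e-15). Against the silent-gene rate per kb, however, Drd2 stood at 7.82 to 234 times in nuclear D1 and 9.50 to 27.2 times in nuclear D2 libraries, and its mean turned, from 5.43 ± 2.08 in D1 to 4.10 ± 0.61 in D2 as log2 (SD), although the groups overlapped on this measure. The nuclear call was lost when the filter on FPKM (fragments per kb and 1e6) was left out (0.57, adjusted p = 0.171), a change that alone moved the D2 minus D1 scale of the nuclear libraries by -1.11, and when the 4 high top-10 D1 libraries were left out (1.82, adjusted p = 0.0516).

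Under this filter Drd1 and Drd2 were the only members tested, and both were called in each set, where 16.0% of 9224 genes tested were called in nuclear, 1.14% of 16342 in whole cell, 3.88% of 6783 in RiboTag M and 2.59% of 7056 in RiboTag F. The shares called higher in D1, as Drd1 was, were 10.3%, 0.783%, 2.58% and 1.57% in the same order, and those called higher in D2, as Drd2 was, were 5.67%, 0.361%, 1.30% and 1.02%. Calls needed an adjusted p of at most 0.05 and a log2 difference above 0.38 in size. FPKM was taken per kb of the full gene span, introns included, and Drd3, Drd4 and Drd5 failed the filter in all 4 sets. With summed exons as length, Drd3 passed in all 4 sets and Drd4 in whole cell. Neither was called there (nuclear Drd3 at 0.15, edgeR adjusted p = 0.602). Drd3, Drd4 and Drd5 were compared by exact permutation tests of mean log2 CPM (two-sided, 0.5 counts added). Such tests were run for 5 genes in 4 sets, 20 in all, and their p-values are given unadjusted. The 4 in which no library had more than 3 counts, Drd4 and Drd5 in either RiboTag set, are not given.

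**Figure D1:**
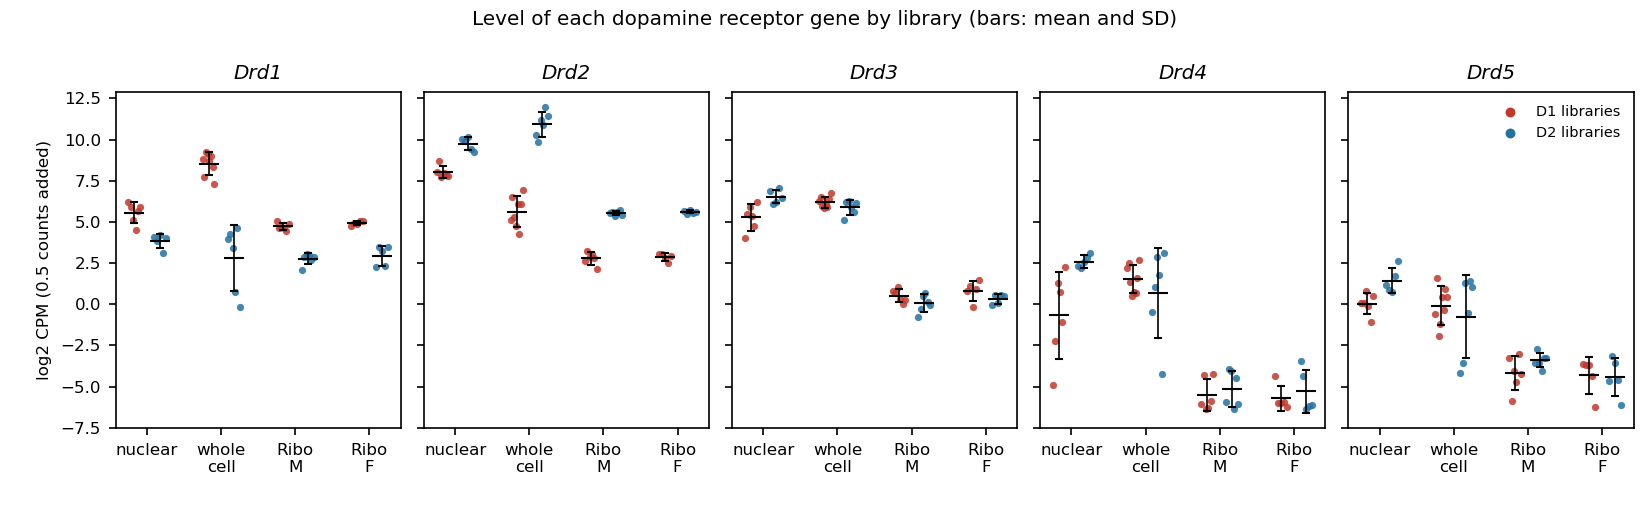
Level of the 5 genes in each of the 47 libraries as log2 CPM (0.5 counts added, vertical axis), by library set, with D1 libraries in red and D2 libraries in blue; bars give the mean and SD of each group. Drd1 and Drd2 separate D1 from D2 in every set, Drd3 overlaps in every set, and RiboTag points of Drd4 and Drd5 stand for 0 to 3 counts.

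Drd3, a D2-like receptor of the ventral striatum, was counted in all 47 libraries and did not follow Drd2 in whole cell and RiboTag libraries. Nuclear D1 libraries had 15.9, 42.3 and 72.6 CPM as lowest, median and highest, and nuclear D2 libraries 117, 68.1, 74.7, 131 and 86.5 CPM. In the whole cell set these were 56.6, 71.6 and 110.2 CPM in D1 and 34.2, 66.0 and 76.9 CPM in D2. The nuclear D2 libraries were mostly above the D1 ones, with 1 value inside their range, and the whole cell groups overlapped. In RiboTag M the lowest, median and highest were 1.00, 1.39 and 2.02 CPM in D1 (29-83 counts) and 0.561, 1.03 and 1.61 CPM in D2 (17-66 counts). In RiboTag F the levels were 1.70, 2.09, 0.876, 1.87 and 2.72 CPM in D1 and 0.937, 1.44, 1.04, 1.49 and 1.37 CPM in D2. Drd3 was thus counted in every RiboTag library of both labels. The receptor of the other type lay above it in the M set, and how much of the Drd3 signal came from untagged cells was not tested.

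By exact permutation test Drd3 was higher in D2 nuclei by 1.26 (5.27 ± 0.80 in D1 and 6.53 ± 0.41 in D2, mean log2 CPM ± SD, n = 6 and 5, p = 0.0130). In the other sets the D2 minus D1 difference was -0.33 in whole cell (6.20 ± 0.34 and 5.88 ± 0.45, n = 8 and 6, exact p = 0.147, and -0.58 with exact p = 0.00500 when scaled by total counts), -0.47 in RiboTag M (0.52 ± 0.38 and 0.05 ± 0.54, n = 6 and 6, exact p = 0.117) and -0.49 in RiboTag F (0.81 ± 0.60 and 0.32 ± 0.30, n = 5 and 5, exact p = 0.135). As scaled here, none of these 3 was larger than the spread between libraries, and they do not show that the cell types had equal levels. Single libraries decided both RiboTag values: without D2 M replicate 4 the difference was -0.60 (exact p = 0.0433), without D1 F replicate 4 it was -0.74 (exact p = 0.00794), and without the 5 libraries of low Y-linked counts the M difference was -0.04 (exact p = 0.952).

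The nuclear difference of Drd3 moved with the silent-gene rate. In nuclear D1 libraries Drd3 stood at 2.14, 6.15 and 24.2 times the silent-gene rate per kb (lowest, median and highest). In nuclear D2 libraries it stood at 1.81, 1.68, 1.74, 1.76 and 2.02 times that rate. Against the background of its own library, Drd3 was therefore lower in every D2 nuclear library than in every D1 one, the opposite of the order in CPM, as for the mean of Drd2. The silent-gene rate itself did not overlap between these groups, so this order is not particular to Drd3. On this log2 measure the D2 minus D1 mean was -1.81 for Drd3, -4.75 for Drd1, -1.32 for Drd2, -1.69 for Drd5 and 0.19 for Drd4. The share of all genes with this order was not tested. With the silent-gene rate subtracted, Drd3 was 14.5, 29.7 and 54.6 CPM in D1 (lowest, median and highest) and 52.5, 27.5, 31.8, 56.5 and 43.6 CPM in D2, and the difference fell to 0.45 (exact permutation p = 0.229). It was 0.15 (exact p = 0.554) when the library size was taken without the FPKM filter and 0.91 (exact p = 0.0952, with 0.0476 the smallest possible) without the 4 high top-10 D1 libraries. The part of the background in this difference was not tested.

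**Figure D2:**
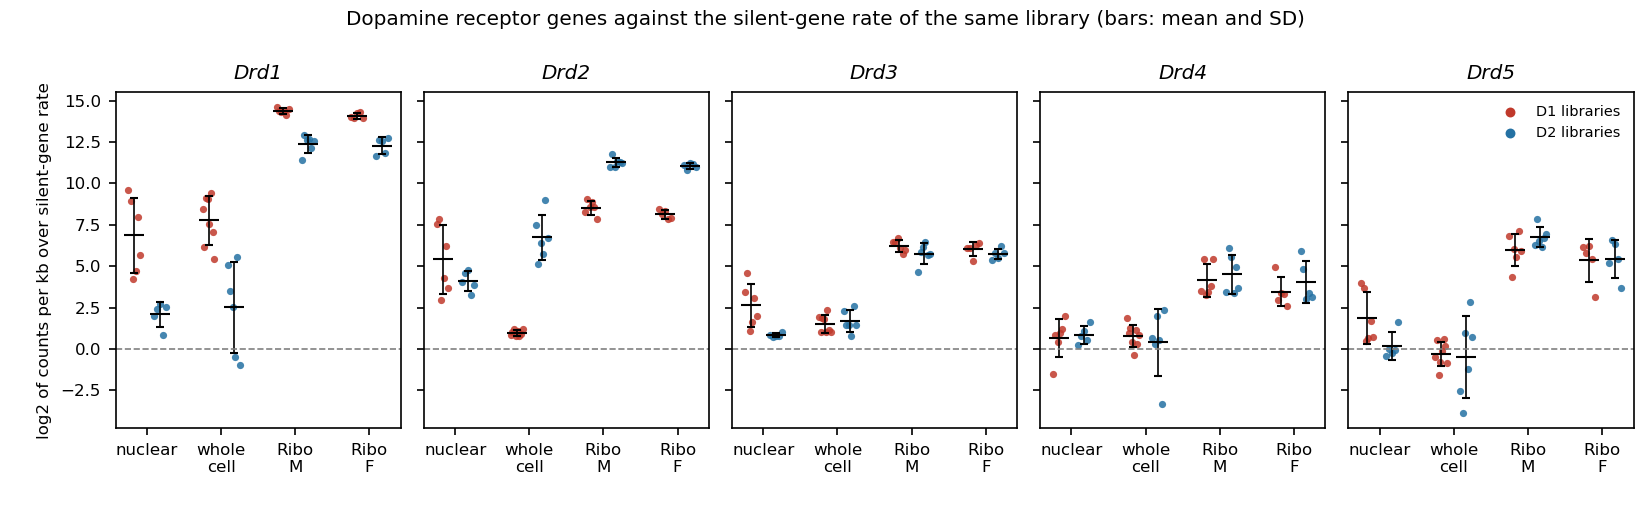
Counts per kb of gene span of each gene over the silent-gene rate of the same library, as log2 (vertical axis), by set; D1 libraries are red, D2 libraries blue, bars give mean and SD, and the dashed line marks the silent-gene rate. Drd3 lies at a log2 value of 2.65 ± 1.30 in nuclear D1 and 0.85 ± 0.10 in nuclear D2 libraries.

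In the other sets Drd3 was above the silent-gene rate in every library. Whole cell libraries had 2.00, 2.88 and 5.21 times that rate in D1 (lowest, median and highest) and 1.72, 2.74 and 6.03 in D2. RiboTag M libraries had 52.8, 77.0 and 102 times in D1 and 24.0, 54.6 and 87.7 in D2. RiboTag F libraries had 68.6, 69.5, 38.6, 75.9 and 83.8 times in D1 and 40.4, 54.8, 44.7, 72.8 and 56.0 in D2. The silent-gene rate was nearly 0 in RiboTag libraries, where 2 or 3 counts of Drd5 in each M D2 library also gave 58.1 to 196 times that rate, so this fold does not set Drd3 apart there. An edgeR fit without the FPKM filter, which kept Drd3, gave 0.10 ± 0.24 in nuclear (adjusted p = 0.727), -0.13 ± 0.17 in whole cell (adjusted p = 1.00), -0.40 ± 0.21 in RiboTag M (adjusted p = 0.290) and -0.57 ± 0.22 in RiboTag F (adjusted p = 0.222). Drd3 was not called in any of these 4 fits.

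**Figure D3:**
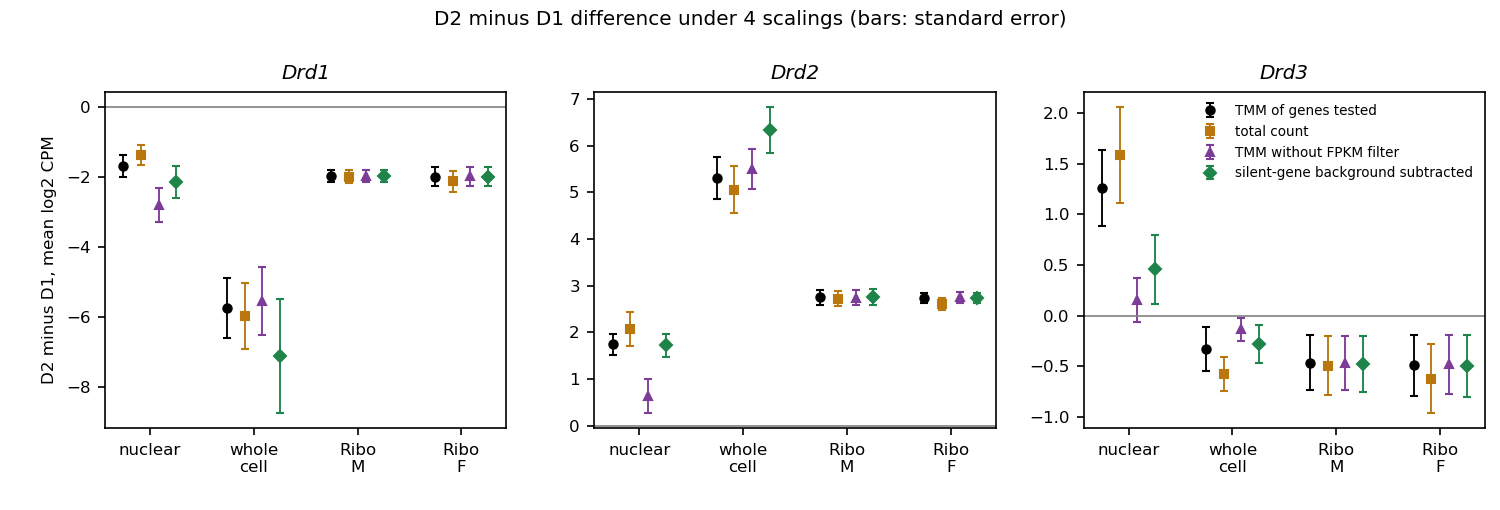
D2 minus D1 difference in mean log2 CPM (vertical axis, own scale in each panel) of Drd1, Drd2 and Drd3 by set under 4 scalings of the libraries; bars give the standard error. The signs of Drd1 and Drd2 hold under each scaling, while nuclear Drd3 runs from 1.58 with the total count to 0.15 without the FPKM filter.

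Drd4, the third D2-like receptor, was counted in 29 of 47 libraries. RiboTag libraries held 0 to 3 counts of it, so no difference could be detected at this depth. In whole cell libraries it ranged from 1.34 through a median of 2.74 to 6.27 CPM in D1 and from 0 through 2.65 to 8.61 CPM in D2, with a difference of -0.85 (exact permutation p = 0.489). In nuclear D1 libraries it was 0 in 3 of 6 and reached 4.43 CPM, and in nuclear D2 libraries it was 4.92, 4.54, 5.91, 6.94 and 8.27 CPM. The nuclear difference of 3.26 (exact permutation p = 0.0152) depends on the 0.5 counts added where nothing was counted. An edgeR fit without the FPKM filter gave 1.32 ± 0.88 in nuclear (adjusted p = 0.229) and 0.23 ± 0.74 in whole cell (adjusted p = 1.00), so Drd4 was called in neither. Drd4 in nuclear D2 was 1.18 to 2.98 times the silent-gene rate, and with that rate subtracted the difference of 2.40 was no longer past the threshold.

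How strongly the receptors separated D1- from D2-MSNs was then compared between methods in a joint edgeR fit of the M libraries, which used no FPKM filter and so its own scale for nuclear libraries. For Drd2 the D2/D1 difference was 4.97 ± 0.47 larger in whole cell than in nuclear libraries (adjusted p = 7.36e-09), 2.07 ± 0.46 larger in RiboTag M than in nuclear (adjusted p = 0.00373) and smaller in RiboTag M than in whole cell libraries (-2.90 ± 0.43, adjusted p = 0.000623). On this scale Drd2 thus differed in each of the 3 pairs of methods. For Drd1 the difference was -2.00 ± 0.71 between whole cell and nuclear (adjusted p = 0.0406), 2.94 ± 0.69 between RiboTag M and whole cell (adjusted p = 0.0866, and 0.00340 by DESeq2) and 0.94 ± 0.72 between RiboTag M and nuclear (adjusted p = 0.455). For Drd3 it was -0.29 ± 0.30, -0.25 ± 0.30 and -0.54 ± 0.32 in the same order (adjusted p = 0.452, 1.00 and 0.303 by edgeR), so edgeR called no change of the Drd3 difference on this scale, while DESeq2 called RiboTag M against nuclear (-0.95, adjusted p = 0.0461). Of 29901 genes, 21.9% were called between whole cell and nuclear, 0.120% between RiboTag M and whole cell and 14.6% between RiboTag M and nuclear. Drd4 was tested and not called, and Drd5 was not tested.

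The library sizes used decided several of these values. The same edgeR fit with the library sizes of the separate fits of each set, an alternative chosen after seeing the data, gave Drd3 at -1.45 ± 0.38 between whole cell and nuclear (adjusted p = 0.00586), -1.57 ± 0.41 between RiboTag M and nuclear (adjusted p = 0.0139) and -0.11 ± 0.38 between RiboTag M and whole cell (adjusted p = 1.00). A change of the Drd3 difference against nuclear libraries was thus called on that scale and not on the joint one. Drd2 then stood at 3.48 ± 0.47 between whole cell and nuclear (adjusted p = 4.13e-05) and at -2.51 ± 0.45 between RiboTag M and whole cell (adjusted p = 0.00903), both called as before, but at 0.97 ± 0.47 between RiboTag M and nuclear (adjusted p = 0.168). Drd1 stood at -3.31 ± 0.61 between whole cell and nuclear (adjusted p = 0.000492), was called between RiboTag M and whole cell (3.11 ± 0.59, adjusted p = 0.0123) and turned sign between RiboTag M and nuclear (-0.20 ± 0.61, adjusted p = 0.983). On that scale 13843 of the 29901 genes were called between whole cell and nuclear.

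Single groups of libraries mattered too. On the joint scale, without the 5 libraries of low Y-linked counts, which left 2 RiboTag M libraries of D1, Drd2 lost its call between RiboTag M and whole cell (-2.61 ± 0.57, edgeR adjusted p = 0.337) and between RiboTag M and nuclear (2.51 ± 0.66, adjusted p = 0.0876), and Drd1 between whole cell and nuclear (-1.82 ± 0.78, adjusted p = 0.0868). Without the 6 nuclear D1 and whole cell D2 libraries of high top-10 share, Drd2 was at 1.43 ± 0.49 between RiboTag M and nuclear (edgeR adjusted p = 0.241). The larger Drd2 difference in whole cell than in nuclear libraries was called in each of these fits.

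The receptor of the other cell type was counted in every D1 and D2 library, and its ratio to the receptor of the labelled type does not depend on library size. Per kb of gene span, Drd2 over Drd1 in D1 libraries had a mean log2 of -1.43 ± 0.63 (SD) in nuclear, -6.80 ± 1.57 in whole cell, -5.84 ± 0.53 in RiboTag M and -5.96 ± 0.33 in RiboTag F. Drd1 over Drd2 in D2 libraries was -1.99 ± 0.39 in nuclear, -4.23 ± 2.30 in whole cell, 1.13 ± 0.41 in RiboTag M and 1.23 ± 0.61 in RiboTag F. In D1 libraries the whole cell ratio was lower than the nuclear one, at a difference of -5.37, and so was the RiboTag M ratio, at -4.41 (exact permutation adjusted over 6 tests, p = 0.00200 and 0.00325). RiboTag M and whole cell D1 libraries differed by 0.96 (exact p = 0.179). In D2 libraries RiboTag M was above nuclear by 3.12 and above whole cell by 5.36 (adjusted exact p = 0.00325 each), while whole cell and nuclear differed by -2.23 (adjusted exact p = 0.0649). The sign of the D2 ratio in RiboTag turns with the length used: per kb of exon it was -3.28 in RiboTag M, since only 3.77% of the Drd2 span is exon. The sign of the nuclear D1 ratio turns as well, to 2.98 per kb of exon. On that scale Drd1 stood above Drd2 in 0 of 6 nuclear D1 libraries. A fixed length cancels from differences between methods, and the part of introns in them was not tested. Without the 5 libraries of low Y-linked counts the D1 difference between nuclear and RiboTag M was -4.67 (exact p = 0.0357, the smallest that 2 RiboTag libraries allow, adjusted 0.0536), and without those of high top-10 share the D2 difference between nuclear and whole cell was -2.01 (adjusted exact p = 0.0159). In these bulk samples, fewer cells of a type and less RNA per cell cannot be told apart.

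**Figure D4:**
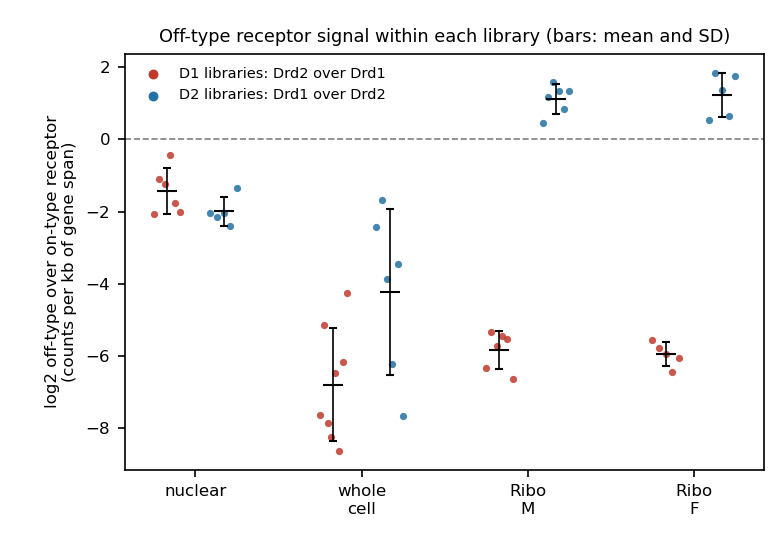
Log2 ratio of the off-type to the on-type receptor within each library, in counts per kb of gene span (vertical axis), for D1 libraries (Drd2 over Drd1, red) and D2 libraries (Drd1 over Drd2, blue) by set; bars give mean and SD. The D2 libraries of RiboTag lie above 0 and all other libraries below it.

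Per kb of exon, Drd2 stood above Drd1 in 6 of 6 RiboTag M D2 and 5 of 5 RiboTag F D2 libraries, and per kb of span in 0 of either. In RiboTag D1 libraries Drd1 stood above Drd2 and Drd2 above Drd3 in all 6 M and all 5 F libraries on either scale. Drd3 was above Drd4 per kb of exon in all libraries of every group. In whole cell D1 libraries, by contrast, Drd3 stood above Drd2 in 8 of 8 per kb of exon, and Drd2 above Drd3 in 3 of 8 per kb of span, so the order of these neighbours was not settled on the span scale. The place of Drd3 against Drd4 was not settled either in nuclear D2 libraries per kb of span, where Drd3 was above in 2 of 5.

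For the 8 whole cell D1 libraries the silent-gene rate was also taken per 1e6 of the normalized library size, not of total counts. Within these libraries the receptors did not move together. Against the log2 silent-gene rate per 1e6 counts, with which they share the library size, Drd1 fell (Pearson r = -0.89, exact permutation p = 0.00117, adjusted over 3 relations 0.00175; Spearman rho = -0.90, exact p = 0.00456) while Drd2 rose (r = 0.99, exact permutation p = 0.000298, adjusted 0.000893; rho = 0.95, exact p = 0.00114). Drd3 rose as well (r = 0.89, exact permutation p = 0.00454, adjusted 0.00454; rho = 0.95, exact p = 0.00114). Without the 2 libraries farthest from the median rate r was -0.93, 0.97 and 0.83. Drd2 and Drd3 lay within 5.21 times that rate per kb of span and shared its library size, so a positive r was likely beforehand. Their p-values are therefore not read as a test of a relation. Drd2 stood at 1.70 to 2.36 times the silent-gene rate in these libraries, against 35.7 to 506 times in whole cell D2 libraries. Per kb of gene span, introns included, Drd2 in the sorted D1 cells thus lay within 2.36 times the rate of genes that should be silent. With that rate subtracted, Drd2 in these libraries was 7.90, 26.9 and 68.3 CPM (lowest, median and highest).

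**Figure D5:**
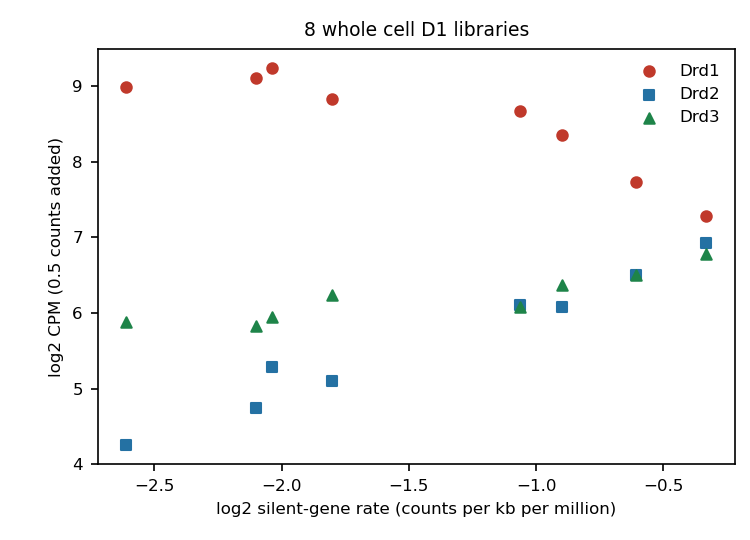
Log2 CPM of Drd1, Drd2 and Drd3 (vertical axis, 0.5 counts added) against the log2 silent-gene rate (horizontal axis) in the 8 whole cell D1 libraries, 1 point for each library and gene. The rate is in counts per kb and 1e6 of the normalized library size. Drd2 and Drd3 climb and Drd1 declines with the rate, with r of 0.99, 0.89 and -0.89.

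RiboTag libraries labelled F and M were compared within each cell type. Drd1 differed by 0.08 ± 0.14 (F minus M, log2, SE) in D1 (edgeR adjusted p = 0.936) and 0.10 ± 0.17 in D2 (adjusted p = 0.926). Drd2 differed by -0.06 ± 0.12 in D1 (adjusted p = 0.937) and by -0.04 ± 0.09 in D2 (adjusted p = 0.949). The D2/D1 difference itself changed by 0.03 ± 0.22 for Drd1 and 0.02 ± 0.15 for Drd2 (edgeR adjusted p = 0.994 for both). No F to M difference was detected for either gene, where 0 of 7171 genes were called in D1 by edgeR (559 at an unadjusted p under 0.05, and 1 called by DESeq2), 0.0697% were called in D2, and 0 in the difference (510 unadjusted, 2 by DESeq2). Without the 5 libraries of low Y-linked counts Drd2 in D1 stood at 0.25 (edgeR adjusted p = 0.705).

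Signalling partners of the receptors were followed as a list of 35 genes, from the G proteins and effectors to the enzymes and transporters of dopamine. In nuclear libraries 24 were tested, 6 were called higher in D1 and 0 in D2, where 10.3% and 5.67% of all genes tested were called in these directions. Without the 4 high top-10 D1 libraries only 3 genes were called in the whole nuclear set, 1 of them higher in D1, so at most 1 of the 6 calls could remain. The 6 were Ppp1r1b (DARPP-32, which receives the cyclic AMP signal) at -1.94 ± 0.37, Rgs4 (a brake on G proteins) at -2.24 ± 0.45, Pde1b (a phosphodiesterase) at -1.31 ± 0.27, Caly (calcyon, a vesicular protein) at -0.90 ± 0.21, Gnal (the stimulatory G protein that couples to Drd1 in striatum) at -0.71 ± 0.16 and Gng7 (a partner of Gnal) at -0.49 ± 0.15, with edgeR adjusted p from 0.00919 to 0.0411. The list median was -0.29, beside 0.04 for all genes tested. In whole cell libraries 25 were tested and Gnai1, an inhibitory G protein, was called higher in D1 (-0.79 ± 0.15, edgeR adjusted p = 0.0147) and Gng7 higher in D2 (0.84 ± 0.17, adjusted p = 0.0219). Gng7 was thus called in opposite directions in the separate fits of nuclear and whole cell libraries. The list median was 0.00, beside -0.09 over all genes. Of all genes tested in whole cell libraries, 0.783% were called higher in D1 and 0.361% higher in D2.

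In both RiboTag sets 25 were tested, with Gnai1 higher in D1 (-0.40 ± 0.05 in M and -0.51 ± 0.06 in F, edgeR adjusted p = 1.13e-06 and 4.10e-06) and Gnb5, which pairs with RGS proteins, higher in D2 (0.60 ± 0.05 and 0.45 ± 0.05, adjusted p = 1.67e-08 and 5.32e-06). List medians were 0.13 in M and 0.09 in F, beside 0.00 over all genes in both. Of all genes tested, 2.58% were called higher in D1 and 1.30% higher in D2 in M, and 1.57% and 1.02% in F. A single call in each direction among 25 is thus not read as a trait of the list. Adcy5, the main adenylyl cyclase of striatum, was not called in any set, at -0.51 ± 0.19 in nuclear, 0.68 ± 0.23 in whole cell, 0.19 ± 0.06 in RiboTag M and 0.10 ± 0.05 in RiboTag F. Gnal and Ppp1r1b stood at 0.11 ± 0.22 and -0.06 ± 0.28 in whole cell libraries and at 0.23 ± 0.04 and 0.18 ± 0.06 in RiboTag M. In RiboTag M Gnal, Ppp1r1b and Adcy5 passed the p threshold toward D2 (edgeR adjusted p = 0.000877, 0.0459 and 0.0319), opposite in sign to nuclear, and missed only the fold threshold of 0.38. Th and Slc6a3, which make and take up dopamine in midbrain neurons, failed the filter in all sets. Slc6a3 spanned 0.0669-20.3 CPM in nuclear D1 and 43.0-80.0 CPM in nuclear D2 libraries, and at most 0.144 CPM in RiboTag libraries. Its nuclear level was not set against the silent-gene rate, which was also higher in every nuclear D2 library than in every nuclear D1 one.

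Markers of the labelled cells and of other cell types were read beside the receptors. Of the 6 D1-MSN markers, 5 were tested and 5 called higher in D1 in whole cell, RiboTag M and RiboTag F libraries. Of all genes tested, 0.783%, 2.58% and 1.57% were called higher in D1 in these sets. In nuclear libraries, where this share was 10.3%, 4 D1-MSN markers were tested and only Sfxn1 was called (-0.68 ± 0.17, edgeR adjusted p = 0.0186). The summed level of the 6 markers there was 239-497 CPM in D1 and 544-873 CPM in D2. Of the D2-MSN markers (5 of 6 in the tables, Gpr52 not analysed here), 4 of 5 tested were called higher in D2 in whole cell and 5 of 5 in either RiboTag set. Of all genes tested, 0.361%, 1.30% and 1.02% were called higher in D2 in whole cell, RiboTag M and RiboTag F. In nuclear libraries, where this share was 5.67%, 4 D2-MSN markers were tested. There Grik3 was called higher in D2 (0.85 ± 0.14) and Penk higher in D1 (-2.41 ± 0.46, edgeR adjusted p = 0.00919 for both). The nuclear markers thus went partly against the labels, unlike Drd1 and Drd2. Without the 4 nuclear D1 libraries of high top-10 share, only 3 genes were called in the nuclear set, 1 of them higher in D1. At most 1 of Sfxn1 and Penk could then remain called. Drd1 and Drd2 lost their calls there (edgeR adjusted p = 0.0805 and 0.0516), so the contrast rests on calls that were not stable.

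Beside Drd2, the 4 markers of cholinergic interneurons summed to 4.27-5.61 CPM in RiboTag M D2 and 2.58-7.91 CPM in F D2 libraries, against 0.684-1.52 and 0.801-1.41 CPM in D1, and their part in the Drd2 difference was not tested. They summed to 28.1-106 CPM in nuclear D1 and 114-218 CPM in nuclear D2, and to 32.1-159 and 27.2-113 CPM in whole cell D1 and D2. Of them 1 was tested, in nuclear, and not called. Among GABA interneuron markers Sst was called higher in D1 in nuclear and both RiboTag sets and Npy in both RiboTag sets. In each of these sets 2 of the 4 were tested. Of all genes tested, 10.3% in nuclear, 2.58% in RiboTag M and 1.57% in RiboTag F were called higher in D1. In nuclear libraries the 4 GABA markers together ran the other way, at 89.6-167 CPM in D1 and 152-243 CPM in D2, with overlap. They summed to 12.9-15.1 and 5.48-13.0 CPM in RiboTag M D1 and D2, and to 11.1-22.5 and 4.24-13.1 CPM in F. No astrocyte marker was called in the nuclear set where 3 were tested, and microglia and endothelium markers all failed the filter. Endothelium markers, like Drd3, were higher in nuclear D2 (431-790 CPM summed) than in nuclear D1 (44.5-352 CPM), as were microglia markers (395-572 against 173-391 CPM). The summed D1-MSN and cholinergic markers and the silent-gene rate were also higher in nuclear D2, without overlap. Other sums overlapped there: D2-MSN markers had 783-1450 CPM in nuclear D1 and 780-1119 CPM in D2, and astrocyte markers 201-498 and 407-528 CPM. The marker sums were not set against the silent-gene rate, and the part of other cells in the Drd3 difference was not tested. No marker was at 0 in every library of a set.

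Over the 47 libraries, with log2 CPM standardized within each set, the genes most like each receptor were read off among 10488 genes. Lrpap1, Tac1 (a D1-MSN neuropeptide) and Ywhah followed Drd1, with Pearson r of 0.87, 0.86 and 0.86. Ankk1, Ttc12 and Grik3 followed Drd2, with r of 0.95, 0.91 and 0.90. Ankk1 (49415194-49427021) and Ttc12 (49436963-49486225) are the neighbours of Drd2 on chromosome 9. Parp8, Col11a1 and Gbf1 followed Drd3, with r of 0.87, 0.83 and 0.82. These values describe libraries that share method, labels, mouse line and background.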

How the data were processed

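RNA of NAc MSNs had been sequenced with a stranded total RNA kit after ribosomal RNA depletion. The authors aligned reads with HISAT2 2.0.5 to GRCm38 and deposited raw counts per Ensembl gene, which featureCounts had counted across each gene body from end to end, ignoring strand, counting fragments once for each overlapping gene and leaving out multi-mapping fragments. The table has 49 columns. A repeat run of whole cell D1 replicate 1 and a further lane of D2 replicate 3 were summed with their first runs, giving 47 libraries of 3701255 to 68777008 counts. All 49 columns were used, and since the whole cell titles name 8 D1 and 8 D2 samples beside 9 D1 and 7 D2 columns, which samples the summed runs stand for was not resolved. Intervals and floors (3 counts) cover counting error only.

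D1 and D2 libraries were compared within each set with edgeR 4.0.16 (R 4.3.3; quasi-likelihood, TMM) on genes above 1 fragment per 1e6 in 2 or more libraries and with FPKM of at least 1 in 1 library and at most 50000 in all (nuclear, whole cell), or of at least 0.1 in 2 (RiboTag), with Benjamini-Hochberg adjustment over all genes tested. FPKM was taken per kb of the full gene span, introns included. The edgeR test replaced the DESeq2 of the study, and DESeq2 1.42.0 was an alternative. Methods were compared by interaction contrasts over M libraries, and F with M over RiboTag libraries. Single values were compared by exact permutation (SciPy 1.17.1), for ratios with adjustment over 6 tests. Gene coordinates came from an annotation of GRCm38 that held 52403 of 52636 genes, with coordinates of its own release. Scripts were tested on simulated data. Genes named were the 5 receptors, members of the list of 35 that were called or encode Gnal, Adcy5, Ppp1r1b, Th or Slc6a3, and the 3 genes most correlated with each of Drd1, Drd2 and Drd3; markers and genomic neighbours were named after their values were seen. The result of the oligodendrocyte marker list is not reported here. The members and lists were chosen with earlier results of these data known. Each mouse gave 1 sample, so p-values measure the spread between mice and their preparation together.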

Additional observations from a re-analysis of the deposited data

Results flagged for a closer look

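The lowest or highest library stood far from the others of its group in 4 of 48 groups examined, where chance gives about 1 in 20. Drd1 in RiboTag D2 M replicate 1 was at 2.10 log2 CPM, with the other 5 at 2.69 to 3.04. Drd2 in nuclear D1 replicate 2 was at 8.71, with the others at 7.75 to 8.05. Drd4 in RiboTag D1 F replicate 1 was at -4.35, with the others at -6.27 to -5.96, which is 1 count against 0. Drd5 in RiboTag D1 F replicate 6 was at -6.27, with the others at -4.37 to -3.61, which is 0 counts against 1 or 2.

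The D2/D1 difference differed between methods for Drd1 (whole cell minus nuclear, -2.00 ± 0.71, edgeR adjusted p = 0.0406) and for Drd2 (whole cell minus nuclear 4.97, RiboTag M minus whole cell -2.90 and RiboTag M minus nuclear 2.07), among 12 such differences tested for members. The last was not called with the library sizes of the separate fits (0.97, adjusted p = 0.168). Without the 5 M libraries of low Y-linked counts, Drd1 between whole cell and nuclear (-1.82, edgeR adjusted p = 0.0868) and Drd2 between RiboTag M and either other method (-2.61 and 2.51, adjusted p = 0.337 and 0.0876) were not called either.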

How the results depend on the processing

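Of 625 alternative values over 65 results, 543 kept their direction and their side of the threshold or stayed within 1.5 times the count. The number of genes called in nuclear libraries (1477, of which 523 were higher in D2) became 8082 without the FPKM filter (1725 higher in D2) and 8299 with exon lengths in it, and 3 without the 4 high top-10 D1 libraries; it ran from 464 (without D2 replicate 5) to 2066 with 1 library left out. In whole cell libraries 187 (59 higher in D2) became 707 with DESeq2 (447 higher in D2), 210 with DESeq2 size factors in edgeR (145 higher in D2), 35 without the FPKM filter, 27 with exon lengths and 781 with the repeat and the lane as own libraries, and 63 (without D1 replicate 5) to 643 (without D1 replicate 8) with 1 left out. In RiboTag M 263 became 481, 480 and, with no fold threshold, 632, and 235 to 290 with 1 left out. In RiboTag F 183 became 279, 276 and 319, and 155 to 199. Between whole cell and nuclear 6553 (4722 positive) became 7185 (3466 positive) with DESeq2 size factors, 13843 (896 positive) with the library sizes of the separate fits and 2527 without high top-10 libraries, and between RiboTag M and nuclear 4356 (3865 positive) became 2988 (2263 positive) with size factors, 3603 (535 positive) with the separate sizes, 12 without low Y-linked and 13 without high top-10 libraries. Between RiboTag M and whole cell 36 became 118 with DESeq2, 85 without high top-10 and 3 without low Y-linked libraries. Total counts moved the D2 minus D1 scale by 0.32 (nuclear), -0.25 (whole cell) and -0.13 (RiboTag F), and leaving out the FPKM filter by -1.11 in nuclear and 0.19 in whole cell. F against M gave 1 (DESeq2) or 6 (without low Y-linked libraries, an alternative chosen after seeing the data) in D1, 10 or 8 in place of 5 in D2, and 2 (DESeq2) in the difference. The causes were not tested.

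Drd3 in nuclear libraries fell below the threshold with background subtracted (0.45), without the FPKM filter (0.15) and without the high top-10 libraries (0.91), and ran from 1.00 to 1.44 with 1 library left out. In whole cell it was -0.58 with total counts (exact permutation p = 0.00500), and -0.41 to -0.17 with 1 left out. In RiboTag M it ran from -0.60 to -0.30, and in F from -0.74 to -0.33. Drd2 in nuclear libraries lost its call with exon lengths (0.62). With background subtracted Drd5 took the values -2.89 in nuclear and 1.39 in whole cell, which depend on the 0.5 counts added to libraries at or below 0 and are not read as a direction. In whole cell Drd5 ran from -1.10 to 0.014 with 1 left out, as Drd4 did from -1.34 to 0.13. Drd1 between RiboTag M and whole cell passed the threshold with DESeq2 size factors or DESeq2 (2.87) and with the separate sizes (3.11), Drd3 between RiboTag M and nuclear with DESeq2 (-0.95), and the D1 ratio between RiboTag M and whole cell with background subtracted (1.99). With the separate sizes Drd3 passed it against nuclear (whole cell -1.45, RiboTag M -1.57), Drd2 between RiboTag M and nuclear missed it (0.97) and Drd1 there reversed (-0.20). Without high top-10 libraries Drd2 between RiboTag M and nuclear missed it (1.43), Drd1 there reversed (-0.42), and the D2 ratio between whole cell and nuclear passed (-2.01). Without low Y-linked libraries Drd1 between whole cell and nuclear (-1.82), Drd2 between RiboTag M and whole cell (-2.61) and nuclear (2.51) and the D1 ratio between RiboTag M and nuclear (-4.67) missed it, and Drd3 (0.24 against whole cell, 0.045 against nuclear) and Drd4 (-0.29 against whole cell) reversed in sign, uncalled in either fit.

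In the D1 against D2 tests, leaving out whole cell D2 replicates 2 and 6 changed no member's call or direction. Without low Y-linked libraries F minus M of Drd2 in D1 was 0.25 and the differences were -0.018 for Drd1 and -0.28 for Drd2. Leaving out the high top-10 or low Y-linked libraries, the separate sizes in the joint fit, and the size scale without the filter in the permutation tests, were chosen after seeing the data.

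RiboTag M replicate numbers did not pair the libraries (correlations of deviations -0.04 to 0.07, 1 of 6 closest to its own number). The fit with the replicate block called 259 genes in place of 263, with Drd1 at -1.94 and Drd2 at 2.72. Depth limits Drd4 and Drd5, which had at most 3 counts in RiboTag libraries.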
